A study of Rattus norvegicus with 8 samples.

Results

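The AP-1 and Egr immediate early genes are a set of 10 rat genes, namely Fos, Fosb, Fosl1, Fosl2, Jun, Junb, Jund, Egr1, Egr2 and Egr3, and 9 of them were measured here, among 14506 genes measured in all. Each gene was represented by its brightest probe set over the 8 arrays, out of those paired with that gene and no other, and Fosb, which was paired with none, was not analysed here. The arrays held RNA of primary ventricular heart muscle cells of newborn rats, grown in 6 cm dishes. In the miR-222 group, 4 arrays held RNA of cells given a miR-222 precursor at 0.4 µM, and in the control group 4 arrays held RNA of cells given a scrambled control precursor at the same dose, in both cases 48 h before RNA extraction. Cells process such a synthetic precursor into the mature microRNA. Because a scrambled RNA can act through its own sequence, a difference between the groups can come from either RNA. Replicate numbers follow the listing of the samples. The labels do not say whether separate cultures were used, and p-values therefore reflect the spread between these arrays, which may be technical only.

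Immediate early genes are transcribed within minutes of a stimulus without new protein synthesis, and most of their transcripts are short-lived. Fos and Jun proteins are basic leucine zipper factors that pair to form AP-1, which binds the sites TGAGTCA and TGACTCA. Within the Fos and Jun families, Fos proteins need a Jun partner, whereas Jun proteins can also pair among themselves. Egr proteins are zinc finger factors that bind GC-rich sites and are held back by the corepressors Nab1 and Nab2. In heart muscle cells both families are known to respond to stretch and to hypertrophic hormones through MAP kinases, the serum response factor SRF and its ETS partners.

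The strand of miR-222 that is known to act on target transcripts shares its seed, bases 2 to 8, with miR-221. Both mature rat sequences (RefSeq, GRCr8) are shown with the seed in capitals, since it is the seed that pairs with target transcripts. The miR-222-3p sequence lies at chrX:6022682-6022702 and that of miR-221-3p at chrX:6023246-6023268, both on the plus strand, and no other mature rat miRNA in the table had this seed.
miR-222-3p: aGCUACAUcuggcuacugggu
miR-221-3p: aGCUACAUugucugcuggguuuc

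Promoter windows of 250 bases before the annotated start were found for 6 of the 9 measured genes (RefSeq, GRCr8), but not for Fos, Jun or Egr3. Those of Egr1 and Fosl2, the genes that changed, are shown with those of Egr2 and Jund, a relative of each that holds the same motif and did not pass the test. Capitals mark the CArG box, the site of SRF, in Egr1 and Egr2, the Egr site (GCGTGGGCG or GCGGGGGCG) in Fosl2 and Jund, and the cAMP response element (TGACGTCA) in Jund. The windows are chr18:26736828-26737077 on the plus strand for Egr1, and, all on the minus strand, chr20:21054442-21054691 for Egr2, chr6:30039270-30039519 for Fosl2 and chr16:18769772-18770021 for Jund. The Egr2 window lies inside the annotated gene, before one of its starts.
Egr1: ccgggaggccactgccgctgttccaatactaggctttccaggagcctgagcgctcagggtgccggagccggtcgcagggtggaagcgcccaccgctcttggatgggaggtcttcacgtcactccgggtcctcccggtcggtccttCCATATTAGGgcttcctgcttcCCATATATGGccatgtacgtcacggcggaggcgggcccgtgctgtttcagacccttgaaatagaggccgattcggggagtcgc
Egr2: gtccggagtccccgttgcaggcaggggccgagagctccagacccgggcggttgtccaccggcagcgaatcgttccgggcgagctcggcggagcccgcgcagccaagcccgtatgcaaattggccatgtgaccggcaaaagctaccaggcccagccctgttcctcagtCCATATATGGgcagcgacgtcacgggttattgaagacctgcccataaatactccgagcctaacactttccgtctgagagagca
Fosl2: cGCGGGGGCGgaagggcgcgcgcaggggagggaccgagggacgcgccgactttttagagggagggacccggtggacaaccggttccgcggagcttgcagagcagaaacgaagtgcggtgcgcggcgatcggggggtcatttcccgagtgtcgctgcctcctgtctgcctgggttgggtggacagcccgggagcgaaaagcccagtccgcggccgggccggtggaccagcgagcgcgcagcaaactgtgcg
Jund: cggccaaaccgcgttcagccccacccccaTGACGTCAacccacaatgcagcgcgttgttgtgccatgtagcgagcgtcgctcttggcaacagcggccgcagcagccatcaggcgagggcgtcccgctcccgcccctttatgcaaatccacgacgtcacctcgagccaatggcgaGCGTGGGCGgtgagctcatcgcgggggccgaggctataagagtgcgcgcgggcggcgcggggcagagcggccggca

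The Egr1 window held 2 CArG boxes, which began 105 and 83 bases before the start, and the Egr2 window held 1, which also began 83 bases before it. A CArG box on either strand was found in 1.50% of the 33469 rat promoter windows of this length. The Egr site began 249 bases before the start of Fosl2 and 76 bases before that of Jund, and 2.85% of all windows held one. The cAMP response element of Jund began 221 bases before its start, and 1.59% of all windows held that motif. None of the 6 windows held an AP-1 site (TGAGTCA or TGACTCA), a motif of 4.05% of all windows, and Junb held a TATAAA motif 49 bases before its start, as did 12.9% of all windows at some position on either strand. The motifs did not overlap one another in these windows. Such matches are descriptions of the letters and were not tested as binding sites.

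The comparison asks which AP-1 and Egr transcripts differed in heart muscle cells given extra miR-222. Egr1 fell to a 1.47-fold lower level with miR-222, and Fosl2, which encodes the Fos relative Fra-2, rose 1.34-fold, whereas the other 7 genes, Fos, Fosl1, Jun, Junb, Jund, Egr2 and Egr3, did not pass the test. The test was limma on log2 intensities, with Benjamini-Hochberg adjustment over every probe set and a threshold of 0.05. By that test 2 of 9 genes changed, which is close to the 24.7% of all 14506 genes that changed in this comparison (11.7% higher and 13.0% lower). The groups did not overlap in the same 2 genes, beside 33.3% of all genes. The median log2 fold change of the 9 genes was 0.045, beside 0.013 over all genes, with 5 of them above 0 and 4 below. Each log2 fold change is that of miR-222 over control, given with its standard error from the fit (SE, n = 4 in each group).

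The arrays carried the markers of heart muscle cells, and all 11 had means of 12.3 to 13.7 log2 units, above every array median. Their summed intensity was 103987 to 105498 with miR-222 and 111713 to 114058 with control, and 3 of them fell, Myh7 by 0.61, Nppa by 0.20 and Ryr2 by 0.14 on the log2 scale. Of 10 fibroblast markers 4 fell, Lum by 0.89, Thy1 by 0.64, Postn by 0.54 and Ddr2 by 0.35, and the sums were 8560 to 9753 with miR-222 and 10004 to 11170 with control. Of 8 smooth muscle markers Tagln fell, by 0.91, with sums of 22500 to 25223 with miR-222 and 26660 to 26943 with control. Of 7 endothelial markers Kdr fell by 1.51 and Eng by 0.27, with sums of 1765 to 1886 with miR-222 and 2465 to 2620 with control. These 2 alone had means above every array median and made up much of the sums. Mean intensities were 295 with miR-222 and 837 with control for Kdr, and 726 and 876 for Eng. Of 10 macrophage markers C1qa rose, by 0.26, and the sums overlapped, at 1211 to 1368 with miR-222 and 1191 to 1282 with control. Means above every array median were found for 7 fibroblast, 7 smooth muscle and 1 of the macrophage markers. Beside the 24.7% of all genes that changed, the shares were 27.3% of heart muscle, 40% of fibroblast, 12.5% of smooth muscle, 28.6% of endothelial and 10% of macrophage markers. The calls of Ryr2, Postn, Ddr2 and C1qa were each lost when some single arrays were left out, and no marker was at 0. The part of these shifts in the changes of Egr1, Fosl2 and the other genes below was not tested.

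**Figure D1:**
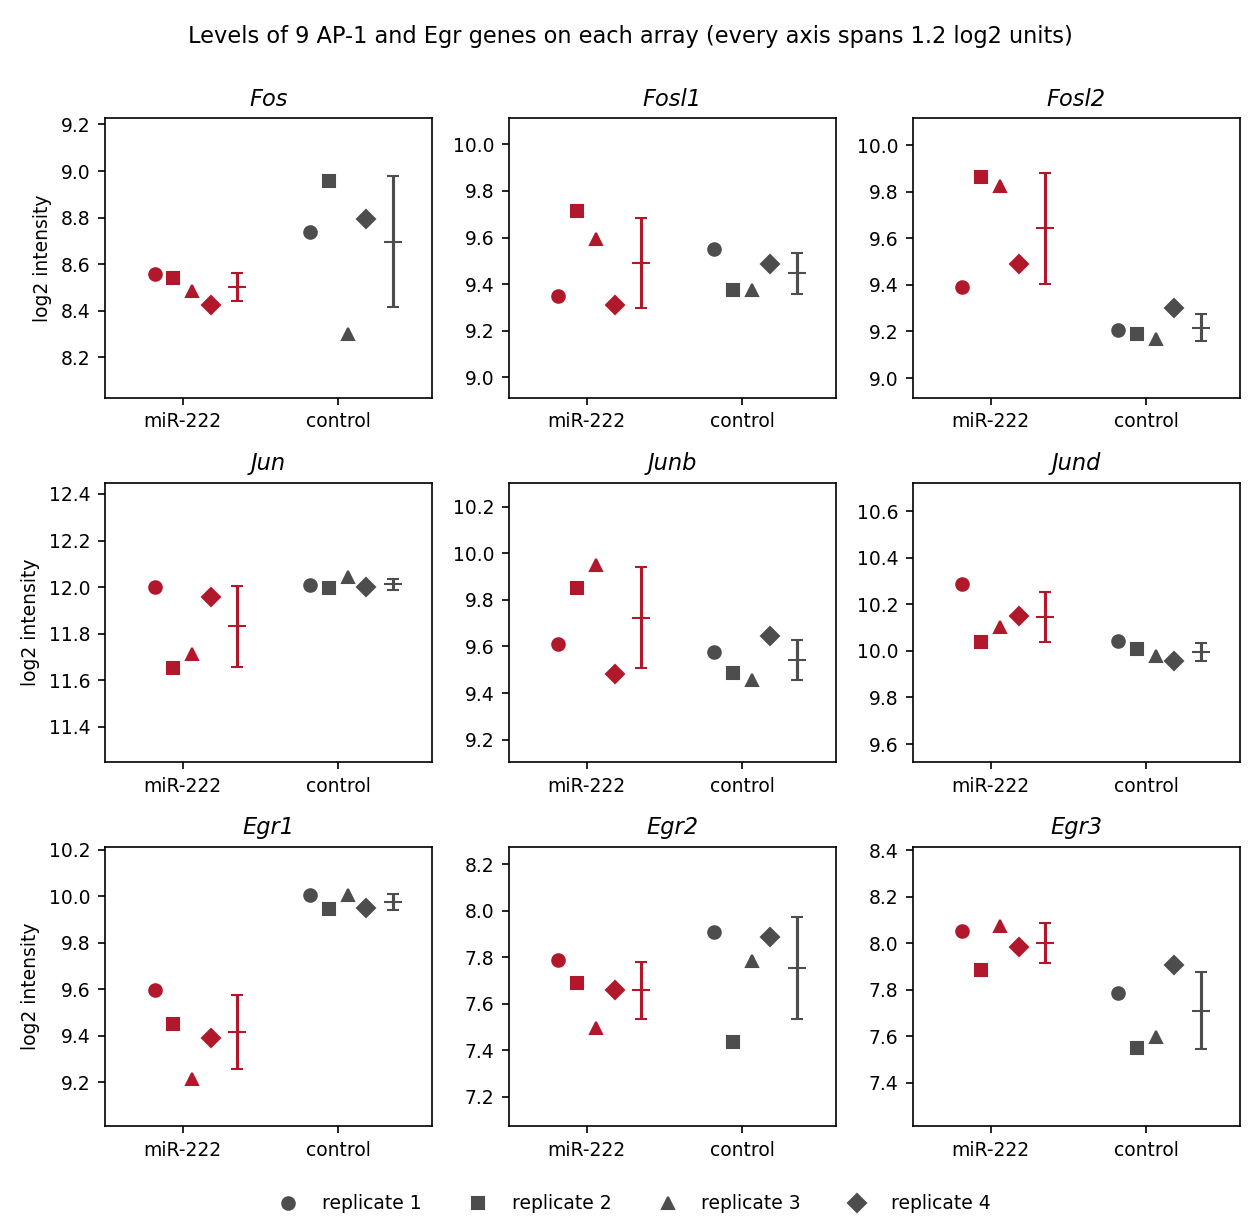
The log2 intensity of each of the 9 genes on every array, miR-222 in red and control in grey, with a symbol for each replicate number, the group mean and its SD (n = 4 each). Only Egr1 and Fosl2 have groups that do not overlap, and in Fosl2, Fosl1, Junb, Jun and Jund miR-222 replicates 2 and 3 lie on one side of replicates 1 and 4.

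Egr1, an early response gene of heart muscle and many other tissues, measured 9.60, 9.45, 9.22 and 9.39 log2 units on the 4 miR-222 arrays and 10.00, 9.94, 10.01 and 9.95 on the 4 control arrays (probe set 10800919). All miR-222 arrays lay below all control arrays, and the miR-222 arrays were the more scattered. The means were 9.41 ± 0.16 with miR-222 and 9.97 ± 0.03 with control (SD, n = 4 each). The log2 fold change was -0.56 (SE 0.08, 95% interval -0.74 to -0.38, adjusted p = 0.00191), and an exact 2-sided permutation test over the 8 arrays gave p = 0.0286, the smallest it allows. Of the 14506 genes, 349 had a more negative change. Fewer cells of a type and less RNA per cell cannot be told apart in such bulk samples.

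Egr3, a close relative that is induced by the same kinds of stimuli, measured 8.05, 7.89, 8.08 and 7.98 log2 units with miR-222 and 7.79, 7.55, 7.60 and 7.91 with control (probe set 10781337). The groups overlapped only through control replicate 4, which lay just above miR-222 replicate 2. The log2 fold change of 0.29 (SE 0.09, 95% interval 0.09 to 0.49) did not pass (adjusted p = 0.0545), but did under 4 of the 6 alternatives that keep all arrays and without control replicate 4 (adjusted p = 0.0229). Egr2, known above all for its part in myelin formation, lay between 7.50 and 7.79 with miR-222 and between 7.44 and 7.91 with control, and the miR-222 range lay inside that of control. Its log2 fold change was -0.097 (SE 0.11, 95% interval -0.36 to 0.16, adjusted p = 0.629). Egr2 and Egr3 were dim probe sets, close to the array medians of 7.66 to 7.77 log2 units.

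Among the Fos genes, Fosl2 measured 9.39, 9.86, 9.83 and 9.49 log2 units with miR-222 and 9.21, 9.19, 9.17 and 9.30 with control (probe set 10940628). All miR-222 arrays lay above all control arrays, and replicates 2 and 3 of miR-222 stood well above replicates 1 and 4. The log2 fold change was 0.43 (SE 0.11, 95% interval 0.17 to 0.68, adjusted p = 0.0309; exact permutation p = 0.0286, the smallest possible), and 500 of all genes had a more positive one. A further probe set of Fosl2, 10940647, gave 0.40 (SE 0.11, adjusted p = 0.0347), with the same arrays on top. The call was lost without any single control array or without miR-222 replicate 2 or 3, with adjusted p of 0.0519 to 0.0762, and the change was 0.22 (adjusted p = 0.0614) without replicates 2 and 3 together.

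Fos, the founding member of the family, measured 8.56, 8.54, 8.49 and 8.43 log2 units with miR-222 and 8.74, 8.96, 8.30 and 8.79 with control (probe set 10886031). The miR-222 arrays lay close together, below 3 of the control arrays and above control replicate 3. Its log2 fold change of -0.19 (SE 0.13, 95% interval -0.49 to 0.10) did not pass (adjusted p = 0.360). Without control replicate 3 the change was -0.33 and passed (adjusted p = 0.0183), so a single array decided the call. Fosl1, which encodes Fra-1, lay at 9.31 to 9.71 with miR-222 and at 9.37 to 9.55 with control, a range inside that of miR-222. Its log2 fold change was 0.045 (SE 0.10, 95% interval -0.18 to 0.27, adjusted p = 0.813), and it turned to -0.029 without miR-222 replicate 2 and to -0.12 without replicates 2 and 3.

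Of the Jun genes, Jun itself, a strong activator of transcription, measured 12.00, 11.65, 11.71 and 11.96 log2 units with miR-222 and 12.01, 12.00, 12.05 and 12.00 with control (probe set 10878112). The control arrays were nearly identical, miR-222 replicates 1 and 4 lay at or just under them, and replicates 2 and 3 lay clearly lower. The log2 fold change of -0.18 (SE 0.08, 95% interval -0.37 to 0.01) did not pass (adjusted p = 0.183). Junb, which can oppose Jun at some genes, measured 9.61, 9.85, 9.95 and 9.48 with miR-222 and 9.58, 9.49, 9.46 and 9.65 with control (probe set 10806585). Here replicates 2 and 3 of miR-222 were the highest of the 8 arrays, and the change of 0.18 (SE 0.11, 95% interval -0.06 to 0.43) did not pass (adjusted p = 0.298). Jund, which is expressed steadily in many resting cells, lay at 10.04 to 10.29 with miR-222 and at 9.96 to 10.04 with control, groups that overlap only at their edge. Its change was 0.15 (SE 0.06, 95% interval 0.01 to 0.28), which did not pass after adjustment (adjusted p = 0.125).

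The arrays of miR-222 thus differed among themselves in 5 of these genes. On replicates 2 and 3 Fosl2, Fosl1 and Junb were higher, and Jun and Jund lower, than on replicates 1 and 4. Jund measured 10.29, 10.04, 10.10 and 10.15 log2 units on the 4 miR-222 arrays. Array weights estimated by limma over all probe sets were 0.565 for replicate 2 and 0.595 for replicate 3, the lowest of the 8 arrays, and 0.869 to 1.88 for the other 6. In Egr1, replicate 3 alone stood lowest. The part of array quality in these values was not tested. Without replicates 2 and 3 the change of Jun was -0.032, that of Junb 0.0036, that of Jund 0.22 (adjusted p = 0.0583) and that of Egr1 -0.48 (adjusted p = 0.0101).

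**Figure D2:**
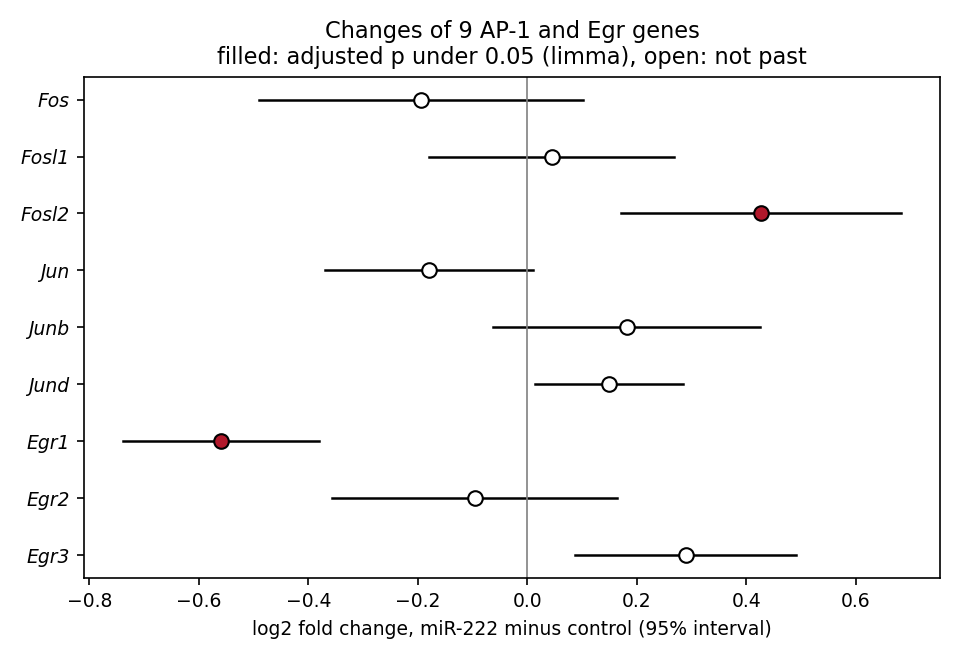
The log2 fold change of miR-222 minus control for the 9 genes with its 95% interval from limma, filled where the adjusted p was under 0.05. The interval of Egr1, -0.74 to -0.38, lies wholly below 0 and that of Fosl2, 0.17 to 0.68, wholly above, while those of Egr3 and Jund also leave out 0 before adjustment over all probe sets.

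The genes whose profiles over the 8 arrays were most like those of Egr1 and Fosl2 were found by the root mean square difference between log2 profiles, each centred on its own mean. Closest to Egr1 were the kinase gene Brsk1 (difference 0.03), Adamtsl5 (0.05), Cdc42ep2, which encodes an effector of the GTPase Cdc42 (0.05), and Emc3 of the membrane protein insertion complex (0.05). Their log2 fold changes were -0.56, -0.57, -0.56 and -0.55, and each had its lowest value on miR-222 replicate 3, as Egr1 did. Closest to Fosl2 were the pyruvate dehydrogenase phosphatase gene Pdp2 (0.06), the antiproliferative gene Tob2 (0.06), Bach1, which encodes a basic leucine zipper repressor (0.07), and Tescl (0.07). Their changes were 0.43, 0.52, 0.46 and 0.38, and replicates 2 and 3 were the highest arrays in each. These are descriptions over arrays that fall into the groups of the study, with no test.

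A list of other basic leucine zipper factors that can pair with AP-1 proteins or bind related sites went mostly down where its genes changed. Bach1, named above, is not in this list and rose by 0.46 (SE 0.09, limma adjusted p = 0.00826). Of 14 measured genes 4 fell, 1 rose and 9 did not pass, so 35.7% changed, beside 24.7% of all genes, with a median of -0.077, beside 0.013 over all genes. Mafk, a small Maf protein, measured 9.18 to 9.54 log2 units with miR-222 and 9.77 to 9.86 with control, a change of -0.45 (SE 0.07, adjusted p = 0.00433). Crem, a cAMP-responsive factor, fell by 0.27 (SE 0.05, adjusted p = 0.00433), Atf7 by 0.24 (SE 0.06, adjusted p = 0.0183) and Atf1 by 0.14 (SE 0.04, adjusted p = 0.0451), while Maf rose by 0.31 (SE 0.06, adjusted p = 0.00936). Jdp2, which represses AP-1, at -0.20 (adjusted p = 0.116), and the stress factor gene Atf3, at -0.20 (adjusted p = 0.260), did not pass. Leaving out any one array other than control replicate 1 ended the call of Atf1, and leaving out control replicate 1 or 3 that of Atf7. The total of 5 was 3 without control replicate 3, and 2 without miR-222 replicates 2 and 3. The count over all genes, 3580 with all arrays, was 2843 and 2611 in these settings. The groups did not overlap in 6 of the 14 genes, among them the 5 called ones, beside 33.3% of all genes.

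Of 5 measured partners and relatives of the Egr proteins none passed in limma, beside 24.7% of all genes, and 1 (Wt1) had an unadjusted p under 0.05. The corepressor gene Nab1 changed by -0.14 (SE 0.08, adjusted p = 0.323) and Nab2 by 0.075 (SE 0.07, adjusted p = 0.535). Nab1 passed without miR-222 replicate 3 (adjusted p = 0.0408), an array on which it was the highest of the 8.

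Upstream of the AP-1 and Egr genes, the JNK kinase genes Mapk8 and Mapk9 and their activator gene Map2k7 were lower with miR-222, whereas the activator gene Map2k4 was higher. Of 17 measured kinases and factors 3 fell, 3 rose and 11 did not pass, so 35.3% changed, beside 24.7% of all genes, with a median of -0.0086, beside 0.013 over all genes. Mapk8, which encodes the kinase JNK1 that phosphorylates Jun, measured 9.33 to 9.69 log2 units with miR-222 and 10.31 to 10.45 with control, groups far apart, and changed by -0.83 (SE 0.08, adjusted p = 3.30e-04). Mapk9, encoding JNK2, fell by 0.32 (SE 0.04, adjusted p = 6.88e-04) and Map2k7, their activating kinase, by 0.39 (SE 0.05, adjusted p = 0.00161). Map2k4, whose product activates both JNK and p38, rose by 0.24 (SE 0.04, adjusted p = 0.00247). Elk4, an ETS partner of SRF, rose by 0.41 (SE 0.05, adjusted p = 6.92e-04), with 9.65 to 9.79 log2 units with miR-222 and 9.30 to 9.34 with control. The kinase gene Rps6ka5, whose product acts on chromatin at immediate early genes, rose by 0.47 (SE 0.06, adjusted p = 0.00173).

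Srf itself changed by -0.14 (SE 0.05) and did not pass (adjusted p = 0.110), though it did with array weights (adjusted p = 0.0496), with a variance trend (adjusted p = 0.0355) and without miR-222 replicate 2 (adjusted p = 0.0413). Of the other ETS partners, Elk1 measured 0.087 (SE 0.04, adjusted p = 0.189), with groups that did not overlap, and Elk3 -0.031 (SE 0.07, adjusted p = 0.832). Mapk3 was not paired with a probe set and was not analysed here.

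**Figure D3:**
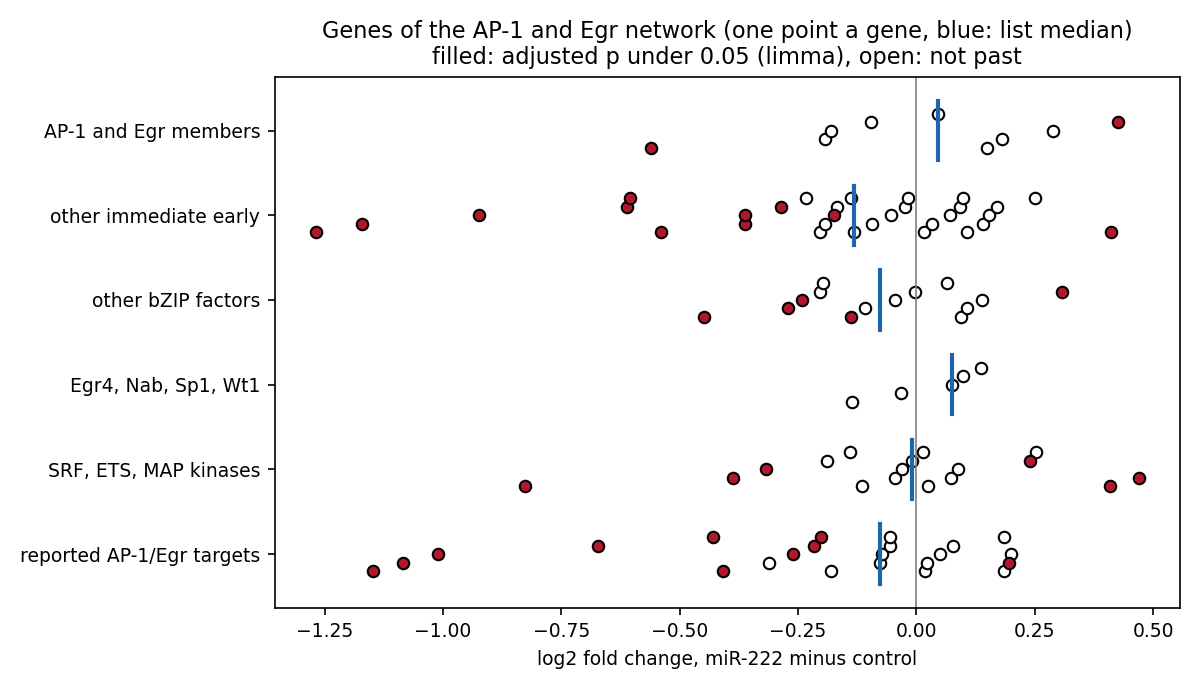
Log2 fold changes of miR-222 minus control for the 9 AP-1 and Egr genes and for 5 lists around them, 1 point a gene, filled where the adjusted p was under 0.05, with the list median in blue. Among other immediate early genes and reported targets most filled points lie below 0, while their open points lie on both sides. The 9 AP-1 and Egr genes have 1 filled point above 0 and 1 below, with open points on both sides.

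Other immediate early genes fell more often than they rose. Of 31 measured genes 10 fell, 1 rose and 20 did not pass, so 35.5% changed, beside 24.7% of all genes (11.7% higher and 13.0% lower). The list had a median of -0.13 beside 0.013 over all genes, and the groups did not overlap in 13 genes, beside 33.3% of all genes. Ptgs2, the inducible prostaglandin synthase, measured 7.66 to 8.04 log2 units with miR-222 and 8.99 to 9.32 with control, a change of -1.27 (SE 0.11, adjusted p = 2.12e-04). Ccn2 fell by 1.17 (SE 0.21, adjusted p = 0.00602) and Ccn1 by 0.92 (SE 0.13, adjusted p = 0.00180); both encode matricellular proteins and are also known as targets of SRF and YAP. The zinc finger gene Klf6 fell by 0.61 (SE 0.10), Myc by 0.54 (SE 0.09) and the pseudokinase gene Trib1 by 0.36 (SE 0.06). The gene that rose was Zfp36l1, a regulator of mRNA decay, at 0.41 (adjusted p = 0.00882), named here after its value was seen. The total of 11 was 7 without control replicate 1 or 2, and 13 without miR-222 replicate 2. Over all 14506 genes the count of 3580 was 2686, 2738 and 3404 in these settings.

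Egr1 moved in the direction of most called genes of that list, and its size lay within theirs, from -1.27 to -0.17 for the genes that fell. That list was chosen with earlier results of these data known and most of its genes did not pass, so this is a description only. Among 22 of these genes with a promoter window, Klf6 and Zfp36 held a CArG box, beside 1.5% of all windows. None held an AP-1 site (4.05% of all windows), and 3, Maff, Nr4a1 and Zfp36, held an Egr site (2.85%). A cAMP response element was found in 5, Dusp1, Ier2, Maff, Plk2 and Ppp1r15a (1.59%), and a TATAAA motif in 8 (12.9%). These counts were not tested. No test of the difference between Egr1 and these genes was made.

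**Figure D4:**
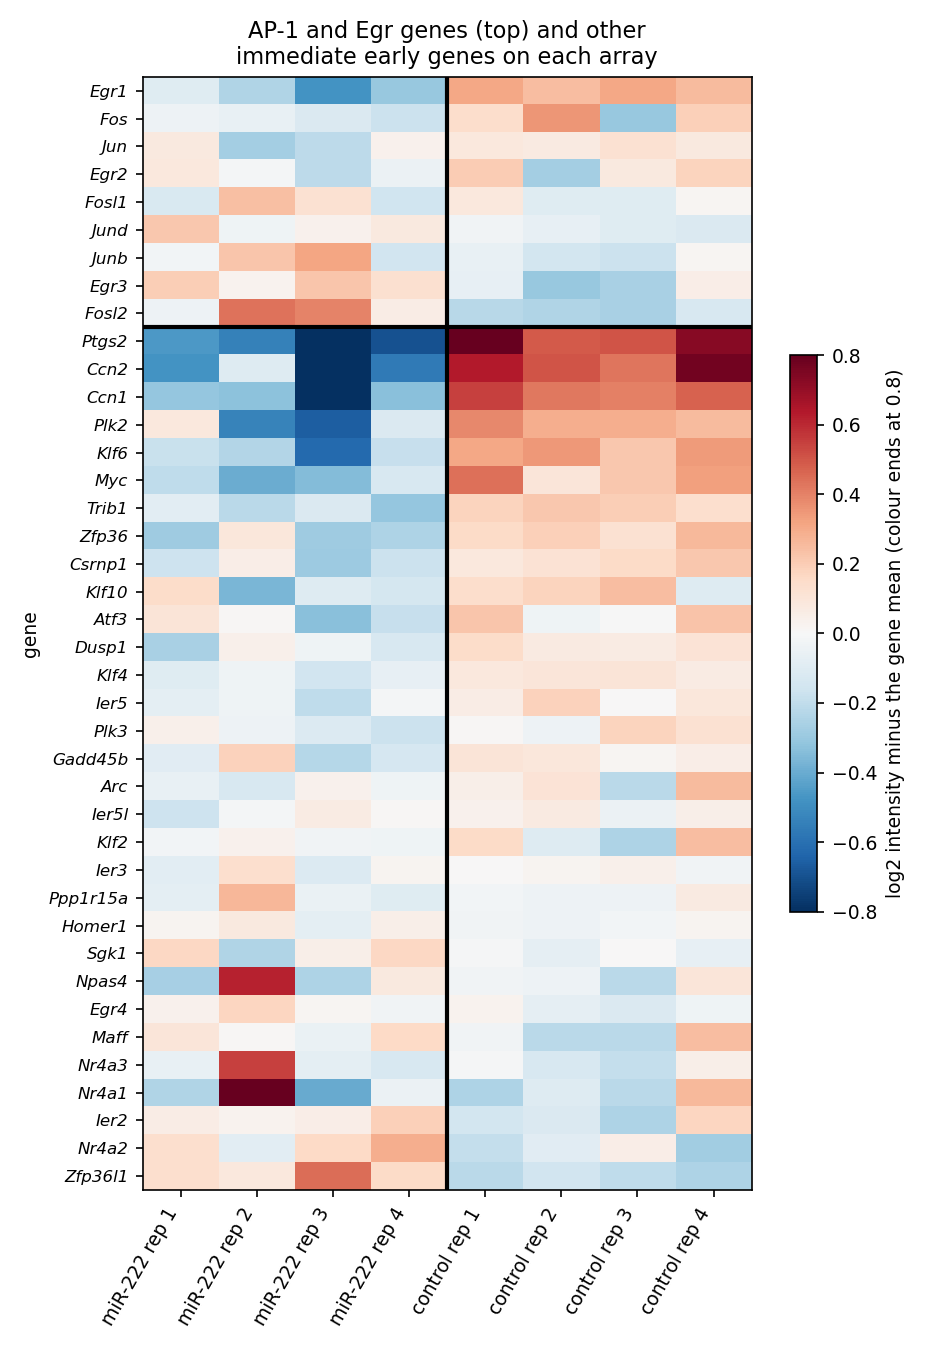
Log2 intensity minus the mean of each gene for the 9 AP-1 and Egr genes (above the line) and the 31 other immediate early genes, with the 4 miR-222 arrays on the left and the 4 control arrays on the right, in order of log2 fold change within each block. Egr1 shares with Ptgs2, Ccn1, Ccn2 and Klf6 a lowest value on miR-222 replicate 3, whereas Myc is lowest on replicate 2 and Trib1 on replicate 4. Fosl2 is highest on miR-222 replicates 2 and 3.

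Genes reported as targets of AP-1 or Egr factors in other cells also fell more often than they rose, with 9 lower, 1 higher and 13 not past the test of 23 measured genes. That is 43.5% changed, beside 24.7% of all genes (11.7% higher and 13.0% lower), and the median was -0.077, beside 0.013 over all genes. The list holds genes with many other inputs. Ccnd1, encoding cyclin D1, measured 10.19 to 10.27 log2 units with miR-222 and 11.24 to 11.36 with control, a change of -1.08 (SE 0.05, adjusted p = 1.83e-05). The growth factor gene Hbegf changed by -1.15 (SE 0.14, adjusted p = 0.00123) and the endothelin gene Edn1 by -1.01 (SE 0.08, adjusted p = 2.03e-04), and endothelin is itself known to induce immediate early genes in heart muscle cells. Cd44, the hyaluronan receptor gene, fell by 0.67 (SE 0.11, adjusted p = 0.00364) and the metalloproteinase inhibitor gene Timp1 by 0.41 (SE 0.04, adjusted p = 5.02e-04). Spp1, encoding osteopontin, was the gene that rose, at 0.20 (adjusted p = 0.0300), and is named after its value was seen. The total of 10 was 6 without control replicate 2 or 4, where the count over all genes was 2738 and 2959 against 3580 with all arrays.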

How the data were processed

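Gene expression was measured on Affymetrix arrays with 4 miR-222 and 4 control samples. The deposited intensity values are linear; the authors' processing and normalization of them are not given in the sources used here. The series text names another rat array, but the probe identifiers pair with the annotation of the Rat Gene 1.0 ST array, which gave the gene names. Of 29170 probe sets, 15310 paired with 1 gene, for 14506 genes, and the brightest of each was used.

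Values were taken as log2 with no pseudocount, since none was 0, and compared with limma 3.58.1 (lmFit, eBayes; R 4.3.3) over all probe sets with Benjamini-Hochberg adjustment and a threshold of 0.05. Precision is limited by the number of arrays. Tested on simulated data of the same spread, with 200 of 29170 probe sets changed, the fit recovered 0% of changes of 0.25, 55.4% of 0.5 and 89.8% of 1 (log2); far more probe sets, 5508, were called in the real comparison, so these rates need not hold there. The members and lists were chosen with earlier results of these data known. The genes named were the members, up to 6 called genes of each list with the smallest p, chosen regulators (Srf, Elk1, Elk3, Elk4, Nab1, Nab2, Atf3, Jdp2, Mapk3, Mapk8 and a further gene that is not reported here) and the 4 nearest profiles of a called member; others are said to be named after their values were seen. Alternatives were quantile normalization, leaving out the dimmest 40% of probe sets, a pseudocount of 16, a variance trend, array weights, the mean of a gene's probe sets and leaving out each array, with miR-222 replicates 2 and 3 left out together added after the data were seen. Figures used matplotlib 3.10.9.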

Additional observations from a re-analysis of the deposited data

Results flagged for a closer look

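Among 124 groups of 4 arrays, 5 held an array whose gap to the nearest of the others passed the 95% limit of Dixon's test, where chance flags about 1 group in 20. On miR-222 replicate 3, Ccn1 measured 10.39 log2 units against 10.93 to 10.95 on the other 3 arrays, Klf6 9.16 against 9.54 to 9.60 and Adamtsl5 8.86 against 9.15 to 9.18. On miR-222 replicate 2, Nr4a3 measured 8.21 against 7.53 to 7.61. On control replicate 1, Atf1 measured 10.90 against 10.99 to 11.00. None of the 9 AP-1 and Egr genes had such an array.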

How the results depend on the processing

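The fall of Egr1 kept its direction and passed under all 15 alternatives, with changes of -0.62 to -0.48 and adjusted p of 1.65e-04 to 0.0101. Egr3 passed with the dimmest probe sets left out (0.29), a pseudocount of 16 (0.27), a variance trend (0.29) and array weights (0.28). Fosl1 turned to -0.041 with array weights, to -0.029 without miR-222 replicate 2 and to -0.12 without miR-222 replicates 2 and 3; the cause was not tested. Without those replicates, Fosl2 measured 0.22 and did not pass. The called genes were then 1 of the AP-1 and Egr genes, 2 of the other leucine zipper factors and 1 of the Egr partners. With all arrays they were 2, 5 and 0. Other immediate early genes gave 12 against 11, upstream genes 6 against 6 and targets 9 against 10. Over all 14506 genes the count also fell, to 2611 from 3580.

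With single arrays left out the changes ranged from -0.33 to -0.11 for Fos, -0.029 to 0.10 for Fosl1, 0.35 to 0.51 for Fosl2, -0.24 to -0.12 for Jun, 0.11 to 0.26 for Junb, 0.10 to 0.18 for Jund, -0.62 to -0.49 for Egr1, -0.20 to -0.042 for Egr2 and 0.24 to 0.35 for Egr3. The counts of called genes ranged from 2686 to 3404 over all genes, 1 to 2 of the AP-1 and Egr genes, 7 to 13 of other immediate early genes, 3 to 4 of other leucine zipper factors, 0 to 1 of Egr partners, 6 to 7 of upstream genes and 6 to 10 of targets. The AP-1 and Egr count was 1 when either control replicate 1 or 2, or either miR-222 replicate 2 or 3, was missing.

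Signs turned for Elk3 without miR-222 replicate 1 (0.030, and -0.077 to 0.030 over single arrays left out), for Nab2 without replicates 2 and 3 (-0.043), and, without miR-222 replicate 2 and without replicates 2 and 3, for Nr4a1 (-0.15 and -0.067), Nr4a3 (-0.018 and -0.024) and Npas4 (-0.099 and -0.048). With other single arrays left out these reached 0.31, 0.21 and 0.19. Among 53 further named genes 720 of 793 values kept direction and call. No paired analysis was possible because the labels give no replicate numbers that pair the arrays. Egr2 and Egr3 lay close to the array medians, and no detection calls were used. Npas4, Tescl, C1qa and Wt1 lay below every array median in both groups, as did Edn1 and Lum with miR-222.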

Other observations

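Nr4a1, Nr4a3 and Npas4, immediate early genes singled out after their values were seen, were highest on miR-222 replicate 2. The same array was the highest of the 8 for Fosl2 and Fosl1. It was also the highest for Egr4, Ppp1r15a, Ier3, Homer1 and Gadd45b, named after their values were seen. Others of the immediate early genes, Nr4a2, Ier2, Sgk1, Klf10 and Myc, instead had their lowest miR-222 value there, and were picked likewise. That array had the highest median of the 8 (7.77 log2 units) and the lowest array weight (0.565). How many of all genes were highest on it was not counted. Nr4a1, an orphan nuclear receptor, measured 8.31, 9.55, 8.15 and 8.51 log2 units with miR-222 and 8.31, 8.45, 8.34 and 8.81 with control, a change of 0.15 (SE 0.29, limma adjusted p = 0.784). Its relative Nr4a3 measured 7.61, 8.21, 7.59 and 7.53 with miR-222 and 7.66, 7.53, 7.47 and 7.71 with control (adjusted p = 0.589). The further relative Nr4a2 had no such peak. It measured 8.09, 7.87, 8.11 and 8.25 with miR-222 and 7.76, 7.86, 8.01 and 7.68 with control (limma adjusted p = 0.121). Npas4, an activity-induced factor, measured 6.39, 7.27, 6.41 and 6.73 with miR-222 and 6.63, 6.62, 6.44 and 6.76 with control (adjusted p = 0.803). Fos showed no such peak on that array, where it measured 8.54, and Egr1, at 9.45, lay below all control arrays there too. Egr4, the family member outside the list, lay at 8.72 to 8.93 with miR-222 and at 8.64 to 8.78 with control (log2 fold change 0.099, SE 0.057, adjusted p = 0.290).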
